A study of Rattus norvegicus with 18 samples.

Results

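Megalin and cubilin are the large endocytic receptors of the kidney proximal tubule, and 6 genes of this uptake system were examined in kidney RNA of 2 rat strains. The genes are the receptors Lrp2 (megalin) and Cubn (cubilin), the adaptor Dab2, the receptor chaperone Lrpap1, the neonatal Fc receptor Fcgrt and the endosomal chloride/proton exchanger Clcn5. Members were taken by name. Each array reads a transcript with probe sets, every one of which pools several short probes into a single signal. A probe set was assigned to a gene where the array annotation gave that symbol and no other. All 6 genes were on the arrays, with 16 of the 26202 probe sets that are not controls.

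The congenic strain carries a chromosome 9 segment of a salt-resistant (R) rat on the background of the inbred Dahl salt-sensitive (S) rat, the other strain. Both strains thus share the Dahl S background, and per the labels the congenic strain belongs to a study of a blood pressure locus. There were 3 samples of kidney total RNA per strain, numbered 1 to 3 in the labels, and every sample was run on array types A, B and C (18 arrays). The labels used here give no age, sex, diet or treatment. They do not state that each tag is its own animal, so the p-values here weigh a spread among samples that could be technical. None of the 6 genes lies on chromosome 9. In the GRCr8 gene table Lrp2 is on chromosome 3, Cubn on 17, Dab2 on 2, Lrpap1 on 14, Fcgrt on 1 and Clcn5 on X, so the comparison concerns genes outside the introgressed segment.

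In the proximal tubule, megalin and cubilin sit on the apical membrane and bind filtered proteins, vitamin carriers and hormones. Megalin spans the membrane and recruits clathrin through adaptors such as Dab2, whereas cubilin has no membrane-spanning part and depends on amnionless for its place at the surface. After uptake, proton pumps and the exchanger ClC-5 acidify the endosome, ligands go on to lysosomes and receptors return to the surface. Loss of function of megalin, cubilin or ClC-5 causes proteinuria of low-molecular-weight proteins or albumin in humans or mice.

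As deposited, the mean after trimming 2% at each end was 150.2 on every type A array and 150.1 on types B and C, the same for all arrays of a type, while array medians varied. For type A they ran from 34.8 to 45.9, for type B from 60.4 to 78.5 and for type C from 61.1 to 75.6. Precision is limited by the few arrays per strain. Both samples numbered 1 stood apart from the others in both strains. On type A the ratio of 3 prime to 5 prime signal for the beta-actin control was 1.51, 2.10 and 2.65 in congenic samples 1, 2 and 3 and 1.48, 2.11 and 2.29 in Dahl S samples 1, 2 and 3, so that it overlapped between strains and was lowest in the samples numbered 1. The GAPDH control gave 1.03, 1.25 and 1.48 in the congenic samples and 1.13, 1.43 and 1.38 in the Dahl S samples, with the same order of sample 1 below the rest. Defining proximal tubule markers were present in every sample: the phosphate cotransporter Slc34a1 read 11002.6 to 16451.4 in the congenic and 10806.5 to 13441.2 in the Dahl S samples, and the inositol oxygenase Miox 22430.5 to 27276.7 in the congenic and 21966.1 to 24559.1 in the Dahl S samples.

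No member passed the test for a difference between the strains. A probe set was tested where its mean log2 signal was above the 40th percentile of its array type, which kept 13 member probe sets of 5 genes. Both Clcn5 probe sets and 1 of the 5 Fcgrt probe sets were too dim. With limma, a linear model that shares the estimate of spread between probe sets, 0 of the 13 passed an adjusted p of 0.05 (adjusted p = 0.9997 for each), and across all probe sets 0 of 15721 did (0%). At an unadjusted limma p under 0.05 there were 0 of 13 member probe sets, beside 391 probe sets (2.49%) over the arrays. The smallest unadjusted limma p of a member was 0.174, in Cubn.

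The members' differences were small in both directions. Congenic means were higher for 7 of the 13 probe sets and lower for 6, with log2 differences (congenic minus Dahl S) from -0.32 to 0.34 and a median of 0.03, whereas 49.5% of all tested probe sets had a higher congenic mean and their median was -0.003. The 3 congenic values lay above the 3 Dahl S values without overlap in 1 of the 13 (Cubn), beside 3.59% of all tested probe sets, and below them in 0 of the 13, beside 3.49%. With 13 probe sets, 1 is the smallest count above 0, and nothing is read from it. For the brightest probe set of each gene, the 95% intervals ran from no lower than 0.753-fold to no higher than 1.38-fold congenic over Dahl S, but over all 13 they reached from 0.486-fold (Fcgrt, probe set 4) to 2.31-fold (Lrp2, probe set 3). The bound therefore depends on which probe set stands for a gene. In whole-kidney RNA, fewer cells of a type and less RNA per cell cannot be told apart.

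**Figure D1:**
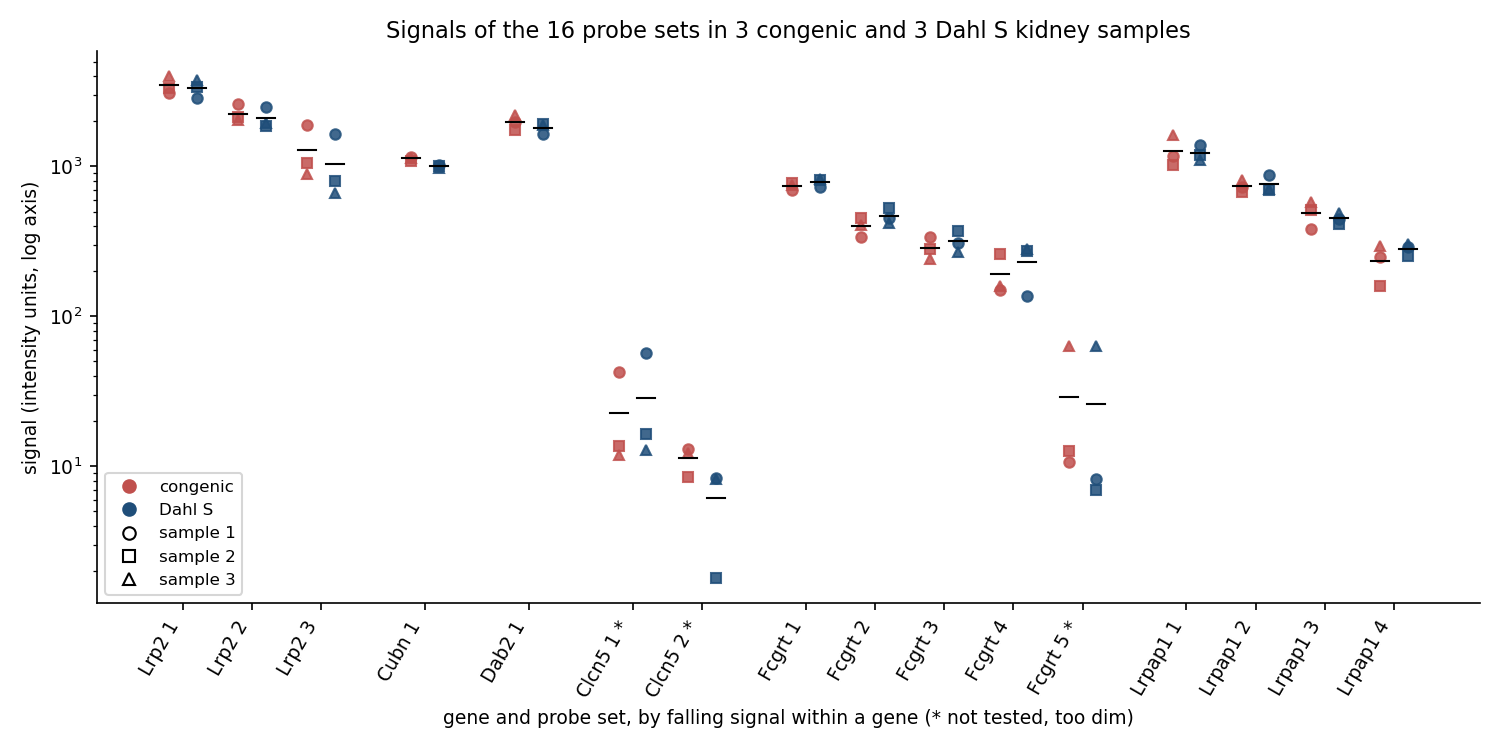
Signals of the 16 probe sets of the 6 genes (y axis, intensity units, log axis), by gene and probe set in order of falling signal within a gene (x axis), with congenic samples in red at the left of each pair and Dahl S samples in blue at the right; marker shape gives the sample number, black lines are means, and an asterisk marks probe sets too dim to test. The strains overlap for every tested probe set but Cubn, and samples 1 (circles) lie apart in the Lrp2 probe sets.

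**Figure D2:**
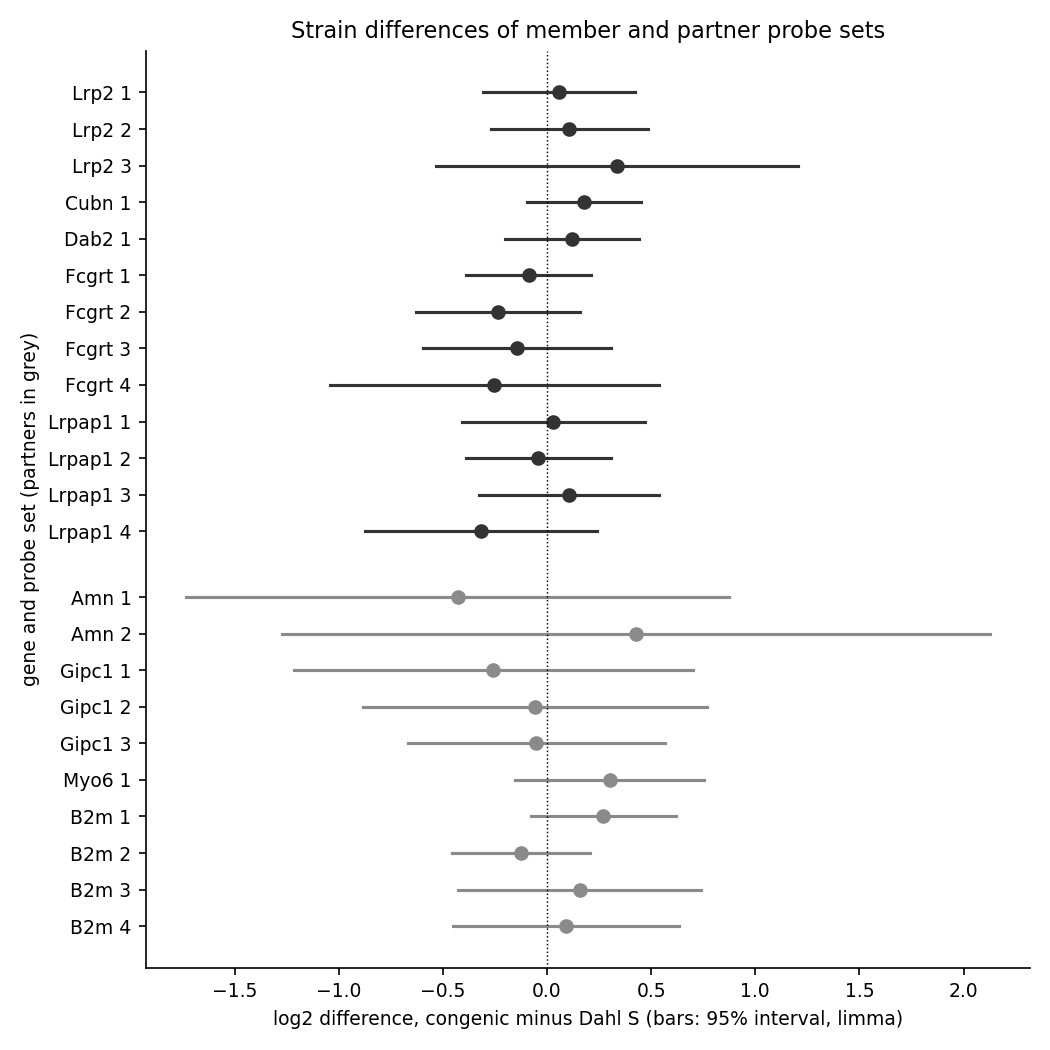
Log2 differences, congenic minus Dahl S (x axis), for the tested probe sets of the members (black) and of their direct partners (grey), with 95% intervals from limma as bars. Every interval includes 0, and those of Lrp2 3, Fcgrt 4 and Amn are wider than those of the brighter probe sets.

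Lrp2 encodes megalin, the main endocytic receptor of the system and a giant relative of the LDL receptor. Its brightest probe set (L34049_g_at, probe set 1) read 3067.6, 3331.7 and 4018.2 in congenic samples 1, 2 and 3 and 2864.1, 3368.3 and 3765.7 in Dahl S samples 1, 2 and 3. The strains overlapped almost fully, and sample 1 was the lowest and sample 3 the highest in both. The mean was 3472 ± 491 in congenic and 3333 ± 452 in Dahl S samples (SD, n = 3 each), a 1.04-fold ratio with a 95% interval of 0.810 to 1.34 (log2 difference 0.06, SE 0.16).

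The other Lrp2 probe sets were highest, not lowest, in the samples numbered 1. Probe set 2 (L34049_at), named for the same source sequence as probe set 1, read 2609.4, 2121.2 and 2027.4 in the congenic samples and 2493.1, 1864.9 and 1936.2 in the Dahl S samples. Probe set 3 (rc_AA891764_s_at) read 1890.3, 1059.4 and 893.8 in the congenic samples and 1655.6, 805.5 and 666.6 in the Dahl S samples. In both, sample 1 was the highest of its strain and the strains overlapped. The log2 differences were 0.11 (SE 0.16, 95% interval -0.27 to 0.48) for probe set 2 and 0.34 (SE 0.38, 95% interval -0.53 to 1.21) for probe set 3. Over the 6 samples, log2 signals of probe sets 2 and 3 had a Pearson r of 0.972, and probe set 1 had an r of -0.745 with probe set 2 and of -0.806 with probe set 3. These 6 points share the contrast between the samples numbered 1 and the rest, which the control ratios above also show. The part of RNA quality in it was not tested.

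In probe set 3 each congenic sample read above the Dahl S sample of the same number. The fit with the sample number as a block gave it an SE of 0.11 in place of 0.38 and an unadjusted limma p of 0.0207, the smallest of any member under any setting tried, with an adjusted p of 0.923. The numbers were not shown to pair the samples, however, and the block is described with the settings. A term for the samples numbered 1 gives them a shared offset, so it still links those samples by number across the strains. With that term probe set 3 had the same difference with an SE of 0.13. Its 95% interval was 0.03 to 0.64 and its unadjusted limma p 0.035, with an adjusted p of 0.979. With both samples numbered 1 left out, the differences were 0.04 (SE 0.16) for probe set 1, 0.13 (SE 0.14) for probe set 2 and 0.41 (SE 0.18, 95% interval -0.03 to 0.84) for probe set 3. With both samples numbered 1 kept or left out, all Lrp2 probe sets thus had a higher congenic mean, and none passed the test. Leaving out single samples moved these values. Where sample 1 of only 1 strain is left out, the contrast shared by the samples numbered 1 is also unbalanced between strains. Probe set 1 was at -0.05 without congenic sample 3 and at -0.05 without Dahl S sample 1, and probe set 2 at -0.0045 without congenic sample 1 and 0.24 without Dahl S sample 1. Probe set 3 ran from 0.02 without congenic sample 1 to 0.73 without Dahl S sample 1. The latter fit had a 95% interval of 0.02 to 1.44 and an unadjusted limma p of 0.0461, with an adjusted p of 0.9998.

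**Figure D3:**
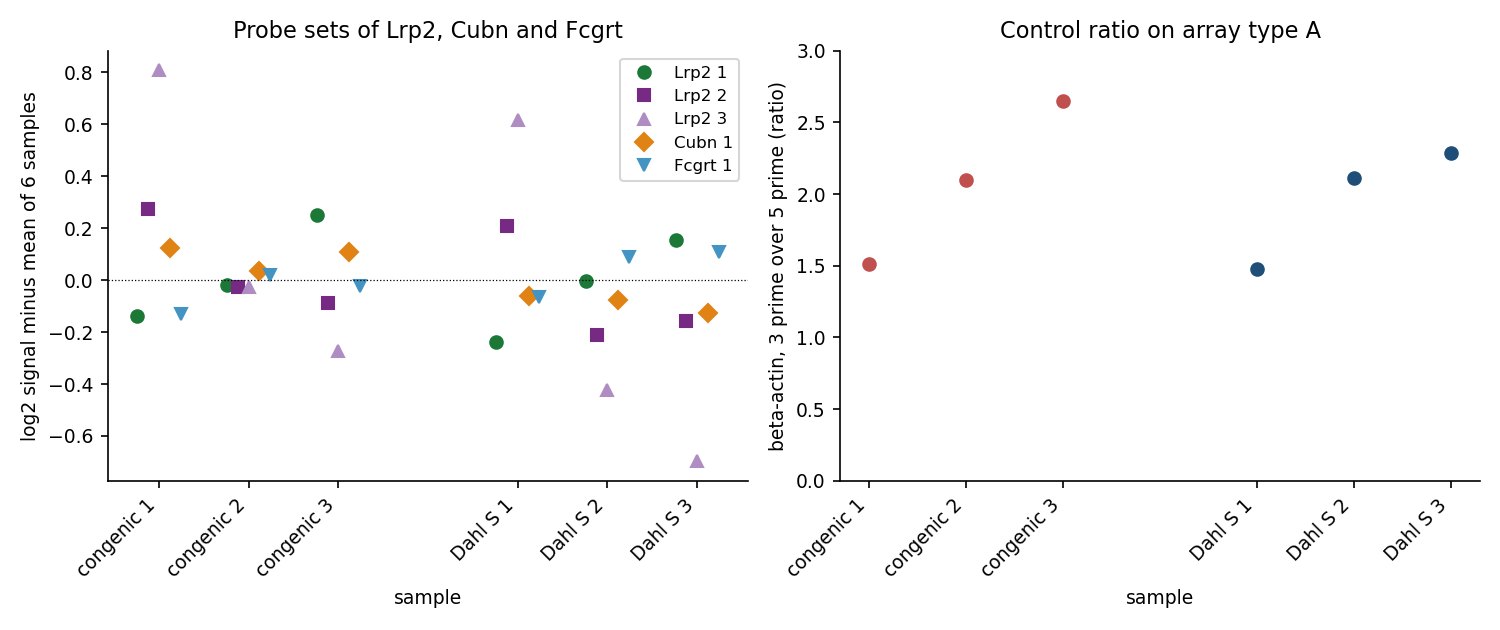
Left, log2 signal of 5 probe sets relative to each one's mean over the 6 samples (y axis), by sample (x axis), for the 3 Lrp2 probe sets, Cubn and the brightest Fcgrt probe set; right, 3 prime to 5 prime signal ratio of the beta-actin control on array type A (y axis) by sample (x axis), congenic in red and Dahl S in blue. Samples 1 are low for Lrp2 1 and high for Lrp2 2 and 3 in both strains, and have control ratios of 1.51 (congenic) and 1.48 (Dahl S) against 2.10 to 2.65 in congenic samples 2 and 3 and 2.11 to 2.29 in Dahl S samples 2 and 3.

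Cubn encodes cubilin, the peripheral receptor that takes up albumin, apolipoprotein A-I and the intrinsic factor-cobalamin complex. Its single probe set (AF022247_at) read 1158.7, 1087.8 and 1144.2 in the congenic samples and 1019.3, 1007.4 and 972.5 in the Dahl S samples. The lowest congenic value was above the highest Dahl S value, and the samples numbered 1 did not stand apart. The mean was 1130 ± 37.5 in congenic and 999.7 ± 24.3 in Dahl S samples (SD, n = 3 each), a 1.13-fold ratio with a 95% interval of 0.936 to 1.37 (log2 difference 0.18, SE 0.12). It did not pass the test.

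The SE given to Cubn depends on how much spread limma borrows from other probe sets of similar signal, since the SD of the log2 values was only 0.05 in the congenic and 0.04 in the Dahl S samples. Without the filter on dim probe sets the SE was 0.06, the 95% interval 0.02 to 0.33 and the unadjusted limma p 0.0305, with an adjusted p of 1. When the borrowed spread was not allowed to vary with signal, the SE was 0.16. The 95% interval was then -0.21 to 0.565 and the unadjusted limma p 0.312. Leaving out each sample in turn moved the log2 difference between 0.16 and 0.20.

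Of 15 tested proximal tubule markers, 12 had a higher congenic mean than the Dahl S mean and 3 a lower one, with a median log2 difference of 0.14. None passed the adjusted threshold, and 1 had an unadjusted limma p under 0.05 (Slc4a4, the basolateral bicarbonate cotransporter, named after its value was seen, at 0.68 with an SE of 0.17). Their median log2 signal, relative to the mean of the 6 samples, was 0.02, 0.10 and 0.17 in congenic samples 1, 2 and 3 and -0.10, -0.10 and -0.06 in Dahl S samples 1, 2 and 3, without overlap. The summed signal of the 15 markers ranged from 64172.9 to 74496.8 in the congenic samples and from 60789.5 to 64457.3 in the Dahl S samples, which overlapped. Markers of other nephron parts leaned the same way, with higher congenic means in 7 of 10 distal and 3 of 3 podocyte genes. These counts rested on particular samples. Without congenic sample 3, or without Dahl S sample 1, 5 of the 10 distal genes were higher. Without congenic sample 2, or without Dahl S sample 2, 2 of the 3 podocyte genes were higher.

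When each sample was shifted by its proximal tubule median, a scale chosen after seeing the data, the median of all tested probe sets moved to -0.185 and every difference was lowered by the same amount. On that scale the log2 differences were -0.00455 for Cubn, -0.12 for Lrp2, -0.06 for Dab2, -0.15 for Lrpap1 and -0.27 for Fcgrt. Relative to the median of all probe sets they were unchanged, by construction of the shift. These values were 0.18 for Cubn, 0.06 for Lrp2, 0.12 for Dab2, 0.03 for Lrpap1 and -0.08 for Fcgrt. Cubn thus lay 0.18 above the array as a whole and level with the shift taken from the proximal tubule markers. The median of the markers' own log2 differences was 0.14, somewhat below Cubn. Whether proximal tubule content or RNA per cell takes part in its difference was not tested.

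**Figure D4:**
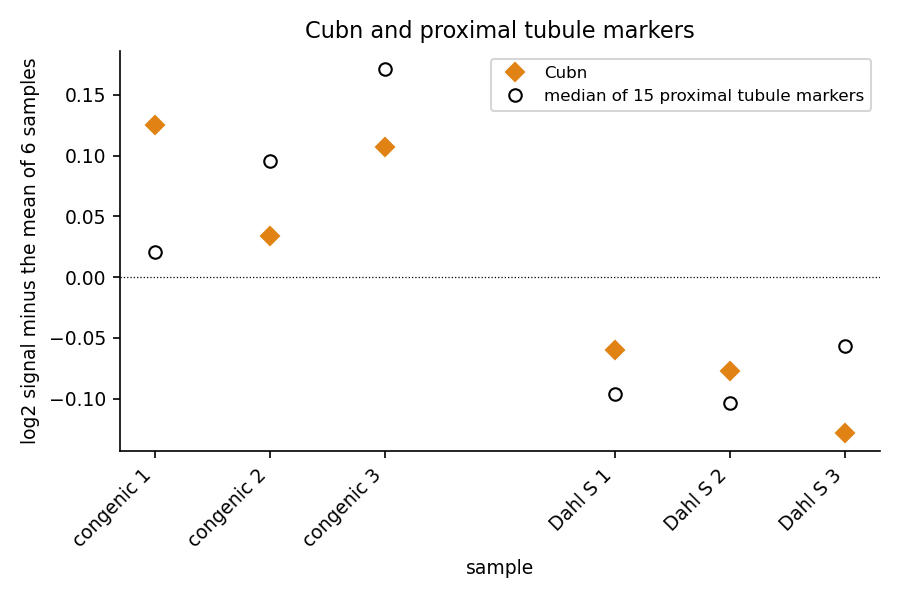
Log2 signal of Cubn (diamonds) and median log2 signal of 15 proximal tubule markers (open circles), each relative to its mean over the 6 samples (y axis), by sample (x axis). Both are above 0 in the 3 congenic samples and below 0 in the 3 Dahl S samples, with 0.13, 0.03 and 0.11 in congenic and -0.06, -0.08 and -0.13 in Dahl S samples 1, 2 and 3 for Cubn.

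Dab2 encodes the adaptor that links the megalin tail to clathrin and the AP-2 complex. Its probe set (U95178_s_at) read 1964.3, 1746.9 and 2201.3 in the congenic samples and 1633.7, 1918 and 1877 in the Dahl S samples. Congenic sample 3 was the highest and Dahl S sample 1 the lowest, and the strains overlapped. The mean was 1971 ± 227 in congenic and 1810 ± 154 in Dahl S samples (SD, n = 3 each), a 1.09-fold ratio with a 95% interval of 0.870 to 1.36 (log2 difference 0.12, SE 0.14). With both samples numbered 1 left out the log2 difference was 0.05, and with single samples left out it lay between 0.04 and 0.20.

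Lrpap1 encodes RAP, the chaperone of the endoplasmic reticulum that keeps ligands off newly made megalin and other receptors of the family. Its brightest probe set (rc_AI232268_at) read 1166.9, 1026.4 and 1625.4 in the congenic samples and 1384, 1198 and 1102.2 in the Dahl S samples. Congenic samples held both the highest and the lowest value. The ratio was 1.02-fold with a 95% interval of 0.753 to 1.38 (log2 difference 0.03, SE 0.19), and the sign depended on congenic sample 3, without which the difference was -0.16.

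The other Lrpap1 probe sets were divided. Probe set 2 (Z11995cds_g_at) read 725.2, 670.2 and 809.2 in congenic and 872.5, 699.8 and 703.2 in Dahl S samples, a log2 difference of -0.04 (SE 0.15). Probe set 3 (Z11995cds_at), named for the same source sequence, read 380.9, 511.9 and 581.7 in congenic and 445.4, 416 and 492.5 in Dahl S samples, a difference of 0.10 (SE 0.19). Probe set 4 (rc_AA892810_at) read 247.3, 159.7 and 294 in congenic and 289.8, 254 and 305.1 in Dahl S samples, the lowest difference among the members at -0.32 (SE 0.24, 95% interval -0.88 to 0.24). All 4 overlapped between strains, and the low reading of congenic sample 2 weighed on probe set 4, whose difference was -0.07 without it.

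Fcgrt encodes the heavy chain of the neonatal Fc receptor FcRn, which binds IgG and albumin in acidic endosomes and returns them from degradation. All 4 tested Fcgrt probe sets had a lower congenic mean, none passed the test, and each overlapped between strains. The brightest (rc_AI180013_at) read 699.7, 775.9 and 754.4 in the congenic samples and 731.6, 815.1 and 824.3 in the Dahl S samples. Its ratio was 0.941-fold with a 95% interval of 0.765 to 1.16 (log2 difference -0.09, SE 0.13), and sample 1 was the lowest of each strain. Probe set 2 (X14323cds_g_at) read 336.3, 450.1 and 409.5 in congenic and 455.8, 525.9 and 420.1 in Dahl S samples, a log2 difference of -0.23 (SE 0.17).

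Probe set 3 of Fcgrt (X14323cds_at) read 336.8, 279.2 and 241.4 in congenic and 308.9, 369.4 and 269.1 in Dahl S samples, a difference of -0.15 (SE 0.20). Probe set 4 (rc_AI044660_at), on array type B, read 150.4, 260.5 and 160.2 in congenic and 137.3, 274.4 and 281.8 in Dahl S samples, a difference of -0.25 (SE 0.35). The lower congenic sign of these 4 held with every sample left out in turn, but the sizes did not: probe set 4 ran from -0.07 without Dahl S sample 3 to -0.59 without Dahl S sample 1, and probe set 3 from -0.03 without Dahl S sample 2 to -0.27 without congenic sample 1. Each 95% interval of the full fit included 0. On the proximal tubule scale, chosen after seeing the data and lowering every difference, probe set 2 was at -0.415 (95% interval -0.80 to -0.03). Its unadjusted limma p was then 0.0384, with an adjusted p of 0.819, and the intervals of the other tested Fcgrt probe sets included 0. Probe sets of the same transcript are not independent: the brightest had a Pearson r of 0.897 with probe set 4 and of 0.679 with probe set 2 over the 6 samples, and -0.09 with probe set 3. The fifth (rc_AI044246_at) was too dim to test, at 10.6, 12.7 and 63.5 in congenic and 8.2, 6.9 and 63.5 in Dahl S samples, with only sample 3 of each strain above the filter level of 39.3.

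B2m, the light chain that FcRn shares with class I major histocompatibility molecules, had 4 tested probe sets that did not move as one. The brightest (rc_AA848811_g_at) read 3188, 3263.6 and 3573.7 in the congenic samples and 2502.4, 3025.7 and 2794.5 in the Dahl S samples, without overlap and with a log2 difference of 0.27 (SE 0.16). The others differed by -0.12 (SE 0.14), 0.16 (SE 0.26) and 0.09 (SE 0.24), all with overlap. None passed the test, so the heavy and light chains of FcRn are given side by side only.

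Clcn5 encodes ClC-5, the exchanger that aids acidification of early endosomes and is mutated in Dent disease. Neither probe set was bright enough to test. The brighter (D50497_s_at) read 42.7, 13.6 and 11.9 in the congenic samples and 56.9, 16.3 and 12.9 in the Dahl S samples, and only the samples numbered 1 were above the filter level of 21.2. The other (Z56277_i_at) read 13.1, 8.5 and 12.3 in the congenic samples and 8.3, 1.8 and 8.2 in the Dahl S samples, all below that level. These values were not shown to be above background, so no ratio between strains is given.

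Direct partners of the receptors were measured for 5 of 6 listed genes. Amn encodes amnionless, which carries cubilin to the surface. Its brighter probe set (rc_AA874951_at) read 766.7, 1102.6 and 195.7 in congenic and 783.4, 945.1 and 545.8 in Dahl S samples, a log2 difference of -0.43 (SE 0.57). Congenic sample 3 alone was far below the rest, and without it the difference was 0.32. The second Amn probe set read 57.6, 39.2 and 60.5 in congenic and 62.8, 10.7 and 83.9 in Dahl S samples, with Dahl S sample 2 below the filter level of 37.7 and a difference of 0.43 (SE 0.75).

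Myo6 encodes the myosin that moves uncoated endocytic vesicles inward from the microvilli and works with Dab2. It read 479.3, 637 and 603.3 in the congenic samples and 398.2, 539.6 and 458.1 in the Dahl S samples, a log2 difference of 0.30 (SE 0.20, 95% interval -0.15 to 0.76). The strains overlapped, since congenic sample 1 lay below Dahl S sample 2. Gipc1, a scaffold that binds the megalin tail and myosin VI, had 3 probe sets at -0.26 (SE 0.42), -0.06 (SE 0.36) and -0.05 (SE 0.27). Ocrl, the inositol phosphatase of Lowe syndrome, was too dim to test at 4.3, 24.5 and 25.2 in congenic and 34.5, 26.4 and 39.3 in Dahl S samples, against a filter level of 39.3 on its array type. The strain values of Ocrl did not overlap, but none was shown to be above background.

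Taking 1 probe set per gene, the steps around the receptors were next described by list. The 5 tested members had a median log2 difference of 0.06 (4 higher, 1 lower) and the 4 tested partners one of 0.01 (2 higher, 2 lower), while 48.9% of all 8168 tested genes had a higher congenic mean and their median was -0.006. In every list 0 genes passed the adjusted limma threshold, and over all genes 2.35% had an unadjusted limma p under 0.05.

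For the clathrin coat, 13 of 16 listed genes of clathrin, AP-2 and associated proteins were tested. Of these, 1 had a higher and 12 a lower congenic mean, at a median of -0.08. The list includes the endosomal sorting proteins Hgs (-0.07) and Stam (-0.17), which are not part of AP-2. None had an unadjusted limma p under 0.05. Ap2s1, the small AP-2 subunit, had the smallest p. It read 304.9, 227.1 and 261.3 in congenic and 390, 432.4 and 283 in Dahl S samples, with a log2 difference of -0.47 (SE 0.21) and a second probe set at -0.25 (SE 0.26). Ap2m1, the subunit that reads cargo tails, differed by -0.15 (SE 0.16). The 1 gene on the other side was Hip1, a clathrin-binding protein named after its value was seen (0.16, SE 0.25). The count rested on particular samples: without Dahl S sample 2, whose median over these genes was the highest of the 6, 7 of the 13 were lower (median -0.02), and without congenic sample 2 also 7 (median -0.05).

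For later steps the medians were close to 0. Of 18 tested genes of endosome sorting and recycling, 10 were higher and 8 lower (median 0.02). In that list the sorting nexin Snx1 differed by -0.51 (SE 0.25) and the retromer subunit Vps26a by 0.18 (SE 0.17), neither with an unadjusted limma p under 0.05. Of 15 tested subunits of the vacuolar proton ATPase, the pump that acidifies endosomes, 10 were higher and 5 lower (median 0.06), but the median was -0.002 under quantile normalization and -0.01 without congenic sample 2 or without congenic sample 3. Atp6v1e1, a stalk subunit, read 720.6, 845.4 and 800.4 in congenic and 621.9, 676.4 and 685.4 in Dahl S samples, without overlap, at 0.25 (SE 0.14). Atp6v1c1, another subunit of the cytosolic part, was at 0.25 (SE 0.19) on 1 probe set and -0.02 (SE 0.20) on the other.

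Of 16 tested lysosome genes, 7 were higher and 9 lower (median -0.02). Both probe sets of Ctsd, the aspartic protease cathepsin D, had lower congenic means, at -0.35 (SE 0.20) and -0.45 (SE 0.20). Lamp1, a lysosomal membrane glycoprotein, had probe sets at -0.25 (SE 0.15), -0.24 (SE 0.19), 0.29 (SE 0.26) and -0.29 (SE 0.85), which do not share a sign. Among 8 tested genes of other LDL receptor family members, 3 were higher and 5 lower (median -0.03, and 0.06 with both samples numbered 1 left out). There the Wnt co-receptors Lrp5 and Lrp6 had the smallest p, at -1.25 (SE 0.60) and 0.46 (SE 0.24), and congenic samples 1 and 3 read Lrp5 under the filter level of 39.3, which leaves the size of that difference unsure.

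Ligands of the receptors, filtered or made in the kidney, included 3 genes far from 0. The list was chosen with earlier results of these data known, so nothing is read from the presence of these genes in it. Of 12 tested, 7 were higher and 5 lower (median 0.01), and 3 had an unadjusted limma p under 0.05, none of which passed the adjusted threshold. Clu, the chaperone clusterin, which megalin takes up, read 604.9, 453.4 and 563.5 in the congenic samples and 1051.2, 1426 and 987.6 in the Dahl S samples, without overlap, at a log2 difference of -1.09 (SE 0.19). Lcn2, the iron-siderophore carrier lipocalin-2, read 42.1, 13.2 and 25.6 in congenic and 63.4, 99.9 and 62 in Dahl S samples, at -1.60 (SE 0.49). Congenic sample 2 was below the filter level of 21.2, so how far Lcn2 differed is uncertain.

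Plg, the plasmin precursor, read 63.2, 97 and 51.2 in the congenic samples and 21.9, 27.1 and 28.4 in the Dahl S samples, at a log2 difference of 1.41 (SE 0.44). All 3 Dahl S values were below the filter level of 37.7, and a second Plg probe set was below the filter level of its array type in all 6 samples, so this difference has a dim base. The 9 other tested ligand genes lay between -0.14 and 0.38. Among them Apoa1, Cblif, Gc, Rbp4 and Ttr were dim, reading 21.5 to 89.6, with SEs from 0.34 to 0.53.

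**Figure D5:**
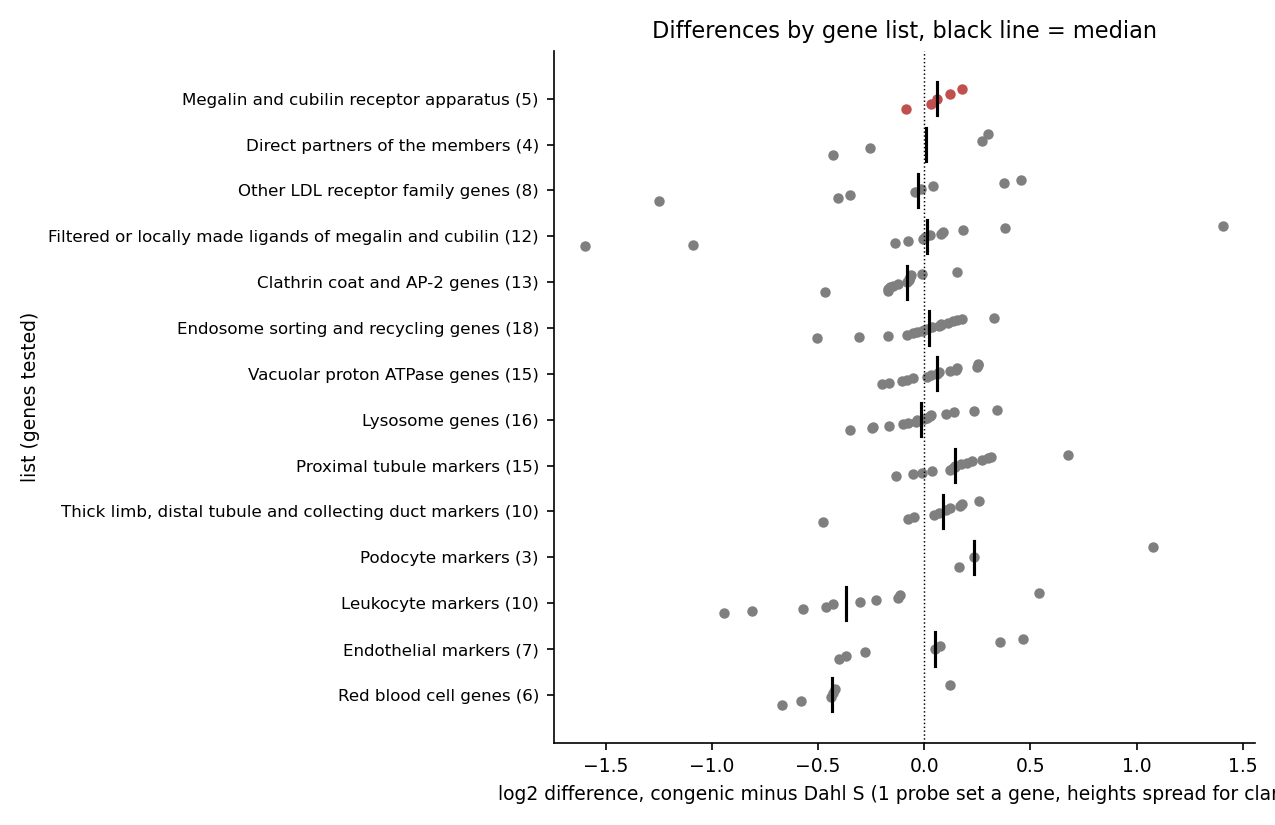
Log2 differences, congenic minus Dahl S (x axis), of 1 probe set per gene for each list (y axis, with the number of genes tested), the 6-gene uptake system in red; points are genes, spread in height within a list for clarity, and black lines are medians. The 5 tested members lie between -0.09 and 0.18, the genes of the clathrin and AP-2 list mostly left of 0, and Clu, Lcn2 and Plg far from the other ligands.

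Leukocyte markers, which bear on inflammatory cells in the tissue, had lower congenic means in 9 of 10 tested genes (median -0.37), 1 of them with an unadjusted limma p under 0.05 (Coro1a, an actin regulator of blood cells, named after its value was seen, at -0.81 with an SE of 0.33). Their per-sample medians relative to the mean of the 6 samples were -0.20, -0.03 and -0.30 in congenic samples 1, 2 and 3 and 0.12, 0.33 and 0.03 in Dahl S samples 1, 2 and 3, without overlap. Summed, their signal ranged from 4507.1 to 4910.9 in congenic and from 4946.5 to 6407.2 in Dahl S samples, also without overlap. Fcgrt and B2m are also made by leukocytes, and the part of those cells in the Fcgrt values was not tested.

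Between the brightest probe sets of the 5 tested genes, Pearson r of log2 signal over the 6 samples ranged from -0.728 (Cubn with Fcgrt) to 0.734 (Lrp2 with Dab2), and Lrp2 with Cubn had an r of 0.03. The Lrp2 values here are those of probe set 1, which ran against the other Lrp2 probe sets. Among 8167 other genes, those whose log2 signal was most like probe set 1 of Lrp2 over the 6 samples were Tram1 (r = 0.997), Srp72 (r = 0.993) and Kidins220 (r = 0.988). Tram1 read 1033, 1218.1 and 1815.6 in congenic and 832.3, 1243 and 1606.9 in Dahl S samples, with the same order of samples 1, 2 and 3 as Lrp2. For Cubn they were Crcp, Rundc1 and Btf3, each with an r of 0.976. Btf3 read 1800.1, 1634.7 and 1773.7 in congenic and 1354.6, 1355.2 and 1351.8 in Dahl S samples, without overlap. With 6 points and so many genes to choose from, these likenesses are a description only.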

How the data were processed

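Kidney total RNA of 3 congenic and 3 Dahl S samples was measured on 3 array types. The authors deposited 1 intensity value per probe set on a linear scale. The values had the same trimmed mean on each array of a type, and the sources used here do not give the software. Intensities were not rescaled. Values under the 10th percentile of a type were raised to it (3.1, 6.8 and 4.83 on types A, B and C), log2 was taken, and probe sets with a mean log2 signal under the 40th percentile of their type (21.2, 39.3 and 37.7) were not tested.

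The strain contrast, congenic minus Dahl S, was fitted per array type in limma 3.58.1 (R 4.3.3) by lmFit and by eBayes with its trend option, with Benjamini-Hochberg adjustment over all 15721 tested probe sets and a threshold of 0.05. For lists, the brightest tested probe set by mean log2 signal stood for a gene. Symbols came from the platform annotation, which can be old (18178 probe sets with 1 symbol, 391 with several, 7633 with none). Chromosomes came from the GRCr8 gene table; base positions are left out because the sources state no build for the arrays. Figures used matplotlib 3.10.9 in Python 3.11.15.

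Named genes were all probe sets of the members and measured partners, and per other list up to 3 genes with an unadjusted p under 0.05 or else the 2 with the smallest p. The members and lists were chosen with earlier results of these data known. Sample numbers were checked for pairing. The deviations of same-numbered samples from their strain means had correlations of 0.45, 0.0774 and 0.182 for samples 1, 2 and 3. The numbers were therefore not taken to pair the samples, and a link by number was not tested further. On type C the hexokinase control had 3 prime to 5 prime ratios of 2.26, 2.94 and 4.85 in congenic samples 1, 2 and 3. In Dahl S samples 1, 2 and 3 they were 2.51, 3.38 and 5.38. On types A and B its 5 prime signal was as low as 3.8 and 4.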

Additional observations from a re-analysis of the deposited data

How the results depend on the processing

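Under all 20 alternative fits, 0 probe sets and 0 members were called, and the lowest adjusted limma p of a member probe set was 0.819. These covered the floor, filter, normalization, eBayes options, adjustment, threshold, replicate block, a term for the samples numbered 1 and samples left out. Probe sets with an unadjusted limma p under 0.05 numbered 391 as reported, 313 with median scaling, 797 of 26202 without a filter, 600 without congenic sample 1, 819 with the sample number as a replicate block, 704 with the term for the samples numbered 1, and 860 after scaling to proximal tubule markers, which was chosen after seeing the data. The replicate block left the difference of Lrp2 at 0.06 and changed no call. Congenic samples 1 and 3 deviated most like the Dahl S samples of their own number (r = 0.45 and 0.182). Congenic sample 2 deviated most like Dahl S sample 3 (r = 0.147), not sample 2 (0.0774).

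With 1 sample left out at a time, the members' median ran from -0.051 to 0.172, Lrp2 from -0.051 to 0.152, Lrpap1 from -0.16 to 0.172, Amn from -0.933 to 0.315 and Gipc1 from -0.631 to 0.199. Scaling to proximal tubule markers turned the members' median to -0.122, Lrp2 to -0.122, Cubn to -0.00455, Dab2 to -0.061, Lrpap1 to -0.151 and Vps26a to -0.00435, by construction of the shift. Averaging the probe sets of a gene turned Lrpap1 to -0.0561 and gave 0.167 for Lrp2, -0.18 for Fcgrt and 0.12 for the members' median. The cause of the other reversals was not tested. Signals near the filter level limit Clcn5, Ocrl and the dim Fcgrt probe set.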

Other observations

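Other cell types of the kidney had mixed values. Of 10 tested markers of the thick limb, distal tubule and collecting duct, 7 had a higher congenic mean and 3 a lower one (median log2 difference 0.09). Of 7 endothelial markers 4 were higher and 3 lower (median 0.05), and all 3 tested podocyte markers were higher (median 0.23). The distal and podocyte counts moved with single samples left out, as given above. Of 6 red blood cell genes 5 were lower (median -0.44). The other, Slc4a1 (0.12, SE 0.16), is also counted among the 10 tubule and duct markers, with the same probe set. Dahl S sample 3 stood apart in the globin genes: the alpha-globin Hba-a1 read 11704.4, 9901.7 and 5917.3 in the congenic samples and 7613.3, 9870.9 and 36676.3 in the Dahl S samples. Without Dahl S sample 3 all 6 red blood cell genes were higher (median 0.14).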
